A study of Macaca fascicularis with 16 samples.

Results

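The descending thoracic aorta was compared with the ascending thoracic aorta in normal young cynomolgus monkeys (Macaca fascicularis). The comparison used every descending and every ascending library of the series, 4 of each, which is 8 of 16 bulk RNA-seq libraries in all. The other 8 libraries are suprarenal and infrarenal abdominal aorta, 4 of each. No animal was treated and the label of all 16 samples is "Baseline", so the groups differ in the region of aorta sampled and carry no allele, agent or diet that the labels name. Whole RNA of the vessel piece was sequenced, and the labels do not say whether the layers of the wall or the tissue around it were removed. The labels give each library a number from 1 to 4 within its region, but they do not say that libraries with different numbers come from different animals. The p-values therefore measure the spread between libraries.

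HOX genes are transcription factors that lie in clusters and are switched on in order along the body axis of the embryo, so that genes near the 5′ end of a cluster, with high paralog numbers, are active further back. In mouse and chick embryos the smooth muscle of the ascending aorta descends from the cardiac neural crest and the second heart field, and that of the descending aorta from the somites. Heart field factors such as HAND1, HAND2, GATA4 and ISL1 build the outflow tract to which the ascending aorta is joined.

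In units of 1e6 counts the 8 libraries held 15.55 to 17.75, and 15926 genes passed the filter on low counts. Levels are given as CPM, the counts of a gene per 1e6 counts of its library, with library sizes scaled by trimmed mean of M values. ACTA2, an actin of smooth muscle, stood at 4919 to 5873 CPM in descending and 4510 to 7192 CPM in ascending libraries. MYH11, the smooth muscle myosin heavy chain, stood at 9790 to 11710 CPM in descending and 3985 to 14110 CPM in ascending libraries, with ascending library 4 the lowest of the 8. Both defining genes of the labelled tissue were thus abundant in every library. Ascending libraries 1 and 4 and descending library 1 stood apart in markers of other cell types, and their values are given beside the results below.

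Few genes passed the test at this depth and spread, and those that did had log2 fold changes of 1.30 to 6.82 in size. The count depended on the setting and was 62 with the replicate number as a block, so it is not a count of all genes that differ. Of 15926 genes, 18 were called by the quasi-likelihood F test of edgeR at an adjusted p under 0.05, which is 0.113%. The descending aorta was higher for 14 of them (0.0879% of tested genes) and lower for 4 (0.0251%). In all 18 the 4 descending and 4 ascending libraries did not overlap, beside 5.42% of all tested genes higher without overlap and 6.37% lower. At an unadjusted p under 0.05 the same test gave 1074 genes, 626 higher and 448 lower, where 796 would be expected by chance if no gene differed. Counts of list members at this p, given below, are to be set beside these 1074 of 15926 tested genes. Counts by DESeq2 and limma voom are to be set beside their counts over all genes, given with the processing. The median log2 fold change over all tested genes was -0.01. Each of the 18 kept its direction when any one of the 8 libraries was left out, which the lack of overlap made all but certain. The calls themselves were less stable. Leaving out ascending library 3 kept 7 of them, ascending library 2 kept 8 and ascending library 1 kept 10.

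**Figure D1:**
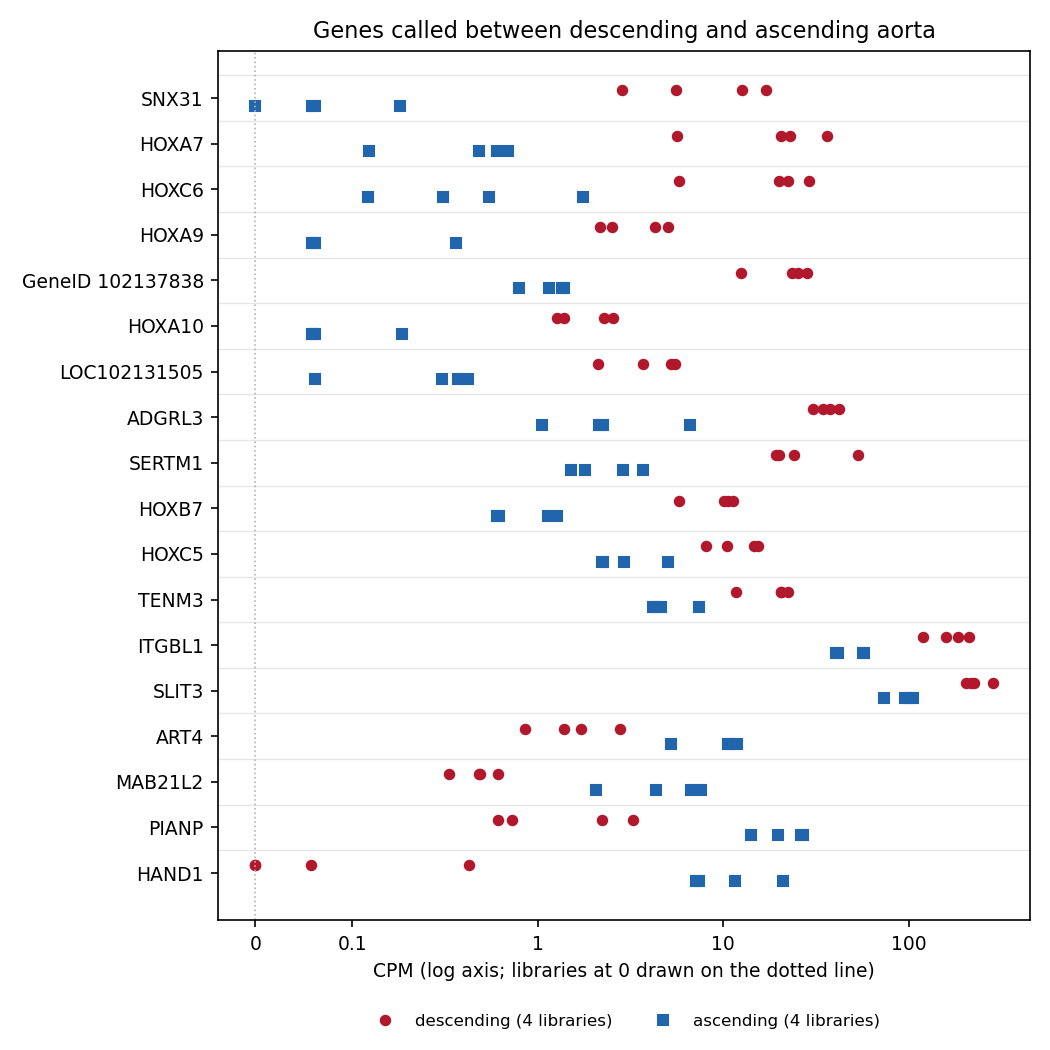
Level in CPM (log axis) of the 18 called genes in each of the 4 descending libraries (circles) and 4 ascending libraries (squares), 1 point per library, ordered from the most positive to the most negative log2 fold change. The 14 upper genes have every circle right of every square and the 4 lower genes have every circle left of every square.

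HOX genes were the most frequent family among the called genes. Of 27 tested HOX genes described here, 6 rose in the descending aorta, namely HOXA7, HOXA9, HOXA10, HOXB7, HOXC5 and HOXC6, and none fell. These calls depended on the tool. Of the 6, the 5 with paralog numbers of 6 or more were not called by limma voom. HOXA7 (GeneID 102134034) was present at 36.4, 23.0, 20.6 and 5.65 CPM in descending libraries 1 to 4, against 0.689, 0.123, 0.605 and 0.483 CPM in ascending libraries 1 to 4. Its lowest descending library was above 5 CPM and no ascending library reached 1 CPM. The log2 fold change of HOXA7 was 5.47 with a standard error of 0.63 (edgeR adjusted p = 0.00198). HOXC6 (GeneID 102135416) stood at 29.0, 22.3, 19.8 and 5.76 CPM in descending libraries, against 1.75, 0.309, 0.121 and 0.543 CPM in ascending libraries. As for HOXA7, descending library 4 was the lowest of its region and still above every ascending library. The log2 fold change of HOXC6 was 4.81 ± 0.62 (SE, edgeR adjusted p = 0.00315).

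HOXB7 (GeneID 102130408) was more even, at 10.6, 10.1, 11.3 and 5.76 CPM in descending libraries, against 1.13, 0.617, 0.605 and 1.27 CPM in ascending libraries. The groups were separated by a wide gap, with a log2 fold change of 3.37 ± 0.40 (SE, edgeR adjusted p = 0.00212). HOXA9 and HOXA10 were scarce in both regions. HOXA9 ranged from 2.16 to 5.06 CPM in descending and from 0.0605 to 0.362 CPM in ascending libraries, and HOXA10 from 1.27 to 2.55 CPM in descending and from 0.0604 to 0.185 CPM in ascending libraries. Their log2 fold changes were 4.60 ± 0.71 and 4.23 ± 0.63 (SE, edgeR adjusted p = 0.0123 and 0.0100), and they rest on 9 counts of HOXA9 and 6 of HOXA10 over the 4 ascending libraries. HOXC5 stood at 15.4, 10.4, 14.6 and 8.04 CPM in descending libraries, against 5.01, 2.22, 2.91 and 2.23 CPM in ascending libraries. Its log2 fold change of 1.97 ± 0.32 (SE, edgeR adjusted p = 0.0167) was the smallest of the 6.

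The difference was uneven over the paralog groups, and no trend was tested. The 6 genes described here of paralog groups 1 to 3 had a median log2 fold change of 0.48, none was called, and 1 of them, HOXB3, did not overlap between the regions. The 6 tested genes of groups 4 and 5 had a median of 1.88, with 1 called and 3 higher without overlap. The 15 tested genes of groups 6 to 11 had a median of 4.23, with 5 called. Of these 15, 14 had a log2 fold change above 0 and 10 were higher in descending libraries without overlap, beside 5.42% of all tested genes higher without overlap and 6.37% lower. The median was 3.37 when HOXB8 and HOXD10, each at 0 counts in a region, were set to the bound that 3 counts over the region allow. At an unadjusted p under 0.05 the 15 genes held 11 (edgeR), beside 1074 of all 15926 tested genes. DESeq2 called 11 of the 15 and limma voom none. The 8 genes of groups 6 to 8 had a median of 4.53 with 3 called, and the 7 genes of groups 9 to 11 a median of 0.57 with 2 called. Among these 7, HOXA11 (6 counts in descending, 4 in ascending libraries) and HOXD10 (0 and 4) were too scarce in both regions to show a difference. HOXC10 (180 and 118 counts) and HOXD9 (64 and 63) held more, with log2 fold changes of 0.57 ± 0.38 and 0.00 ± 0.81 (SE). A large difference was thus not seen in every gene of the highest groups.

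Within the posterior groups the size of the difference was uneven. HOXB6 was already present in the ascending aorta, at 15.95, 20.3, 21.8 and 18.3 CPM in descending and 8.77, 7.71, 4.90 and 10.1 CPM in ascending libraries. Its groups did not overlap, but its log2 fold change of 1.28 ± 0.26 missed the threshold (SE, edgeR adjusted p = 0.0776). HOXC8 held 128 counts over the descending and 3 over the ascending libraries, a ratio of 41.2 with a 95% counting interval of 13.8 to 203 (edgeR adjusted p = 0.0776). HOXB8 held 27 counts over the descending and 0 over the ascending libraries, so it was at least 8.7-fold higher, against a floor of 3 counts over the region. Intervals and floors cover counting error only. HOXC10, HOXD9 and HOXA11 overlapped between the regions, with log2 fold changes of 0.57, 0.00 and 0.48. That of HOXA11 rests on 6 counts in the descending and 4 in the ascending libraries. HOXD10 held 0 counts in the descending and 4 in the ascending libraries. HOXB9 (10 counts in descending, 0 in ascending libraries), HOXB1 and HOXA13 were below the filter, and HOXB13, HOXC11, HOXC12, HOXC13, HOXD11, HOXD12 and HOXD13 held no count in any of the 8 libraries. HOXA5 was not analysed here.

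Of the 12 anterior genes described, in groups 1 to 5, 11 had a log2 fold change above 0, and the median was 0.82. DESeq2 called 3 of the 12 and limma voom 1. Of these genes 4 were higher in descending libraries without overlap, beside 5.42% of all tested genes. HOXB5 was at 3.05 to 5.52 CPM in descending and 0.424 to 2.35 CPM in ascending libraries, a log2 fold change of 2.05 (edgeR adjusted p = 0.229). HOXB2 and HOXB4 were the members nearest to 0. HOXB2 was present at 70.1, 59.9, 77.0 and 63.6 CPM in descending libraries, against 81.0, 58.3, 60.6 and 80.4 CPM in ascending libraries. HOXB4 was present at 23.7 to 31.5 CPM in descending and 23.1 to 32.4 CPM in ascending libraries. Both overlapped fully, and their log2 fold changes were -0.05 ± 0.22 and 0.07 ± 0.18 (SE). HOXD4 and HOXD8 had descending levels of 7.70 to 18.7 and 3.82 to 13.9 CPM, against 1.25 to 10.98 and 0.864 to 6.16 CPM in ascending libraries. In both genes the overlap came from ascending library 4, which stood at 10.98 CPM for HOXD4 and 6.16 CPM for HOXD8 where the other 3 ascending libraries were at or below 1.51 CPM. The counting is not stated to use strand, so reads of a HOX gene and of antisense transcripts that overlap it cannot be told apart. MEIS and PBX genes, which encode DNA-binding partners of HOX proteins, gave no call among 8 tested in edgeR, 1 at an unadjusted p under 0.05, none in DESeq2 or limma voom, and a median log2 fold change of -0.06.

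**Figure D2:**
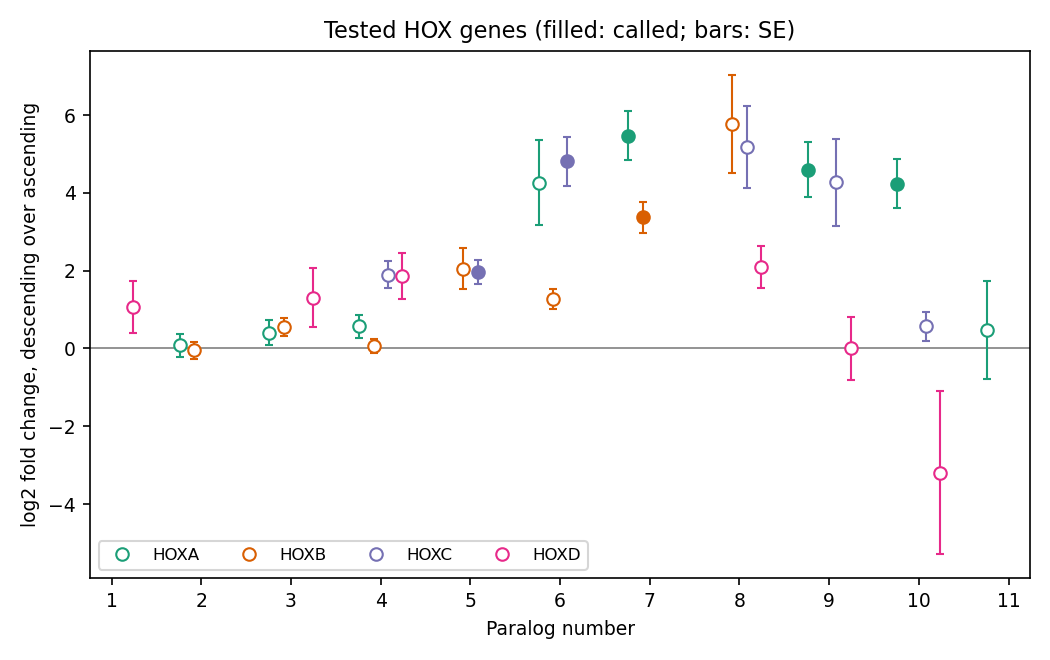
Log2 fold change of descending over ascending aorta (vertical axis, bars are standard errors of the edgeR fit) for the 27 HOX genes described by paralog number (horizontal axis) and cluster (colour), with called genes filled. Genes of groups 1 to 3 lie between -0.05 and 1.30 (median 0.48), and most of groups 6 to 11 lie above 3, apart from HOXB6, the HOXD genes, HOXC10 and HOXA11.

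Among 18 tested transcription factors of the heart fields and outflow tract, HAND1 was the gene that passed the test, and it fell. HAND1 (GeneID 102132552), a basic helix-loop-helix factor of heart development, stood at 0, 0.0602, 0.425 and 0 CPM in descending libraries, against 7.14, 7.41, 21.0 and 11.6 CPM in ascending libraries. It was at or near 0 in every descending library, with 8 counts in all against 773 in the ascending libraries. The log2 fold change was -6.54 ± 0.98 (SE, edgeR adjusted p = 0.0100). Of the 18 factors, 13 had a log2 fold change below 0, and the median was -0.83. Without overlap 7 were lower and 2 higher, beside 6.37% of all tested genes lower and 5.42% higher. At an unadjusted p under 0.05, 10 of the 18 were found, beside 1074 of all 15926 tested genes. DESeq2 called 5 of the 18 and limma voom 1.

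The other factors of this list with the lowest p-values were chosen after their values were seen, and none passed the test without the replicate block. HAND2, the paralog of HAND1, stood at 22.5, 48.2, 43.6 and 48.8 CPM in descending libraries, against 100.1, 107, 98.9 and 85.5 CPM in ascending libraries. GATA5, a zinc-finger factor of endocardium and heart, stood at 6.42, 8.73, 16.4 and 9.26 CPM in descending libraries, against 30.2, 26.5, 61.3 and 70.6 CPM in ascending libraries. In both genes all 4 descending libraries were below all 4 ascending libraries, with log2 fold changes of -1.26 (edgeR adjusted p = 0.0921) and -2.21 (edgeR adjusted p = 0.0616). GATA4, another cardiac GATA factor, was at or below 0.111 CPM in descending libraries and at 2.51, 0.679, 1.51 and 15.4 CPM in ascending libraries (edgeR adjusted p = 0.0760). ISL1, a marker of the second heart field, was at or below 0.166 CPM in descending and between 1.45 and 3.63 CPM in ascending libraries (edgeR adjusted p = 0.0972). The highest GATA4 value came from ascending library 4. With the replicate number as a block in the model 5 of the 18 factors were called, beside 0.389% of all tested genes, 4 lower (0.151% of all tested genes) and 1 higher (0.239%). The lower ones were HAND1, GATA5 (edgeR adjusted p = 0.000811), GATA4 (edgeR adjusted p = 0.0296) and HAND2 (edgeR adjusted p = 0.0372). The higher one was TBX1, a factor of the pharyngeal arches and second heart field, at 24.3 ± 6.53 CPM in descending and 7.21 ± 2.85 CPM in ascending libraries without overlap (SD, n = 4 each, edgeR adjusted p = 0.0360 with the block and 0.439 without it).

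Of 21 tested neural crest factors none was called in edgeR without the block and 1 with it. At an unadjusted p under 0.05 there were 10, beside 1074 of all 15926 tested genes, and DESeq2 called 5 and limma voom none. The median log2 fold change of the 21 factors was -0.17, with 9 above 0. EYA4 averaged 2.14 ± 1.12 CPM in descending and 0.168 ± 0.136 CPM in ascending libraries, and TFAP2A 0.976 ± 0.231 CPM in descending and 4.96 ± 2.65 CPM in ascending libraries (SD, n = 4 each), with edgeR adjusted p-values of 0.155 and 0.180 without the block. TFAP2A was the member called with the block (log2 fold change -2.25, edgeR adjusted p = 0.0313), and it was lower, whereas EYA4 was not called with it (edgeR adjusted p = 0.123).

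ADGRL3, TENM3, SLIT3 and ITGBL1, which encode membrane or secreted proteins, also rose. ADGRL3 (latrophilin 3, GeneID 102144435), an adhesion receptor that binds teneurins and is best known from synapses, stood at 30.4, 42.2, 34.5 and 37.5 CPM in descending libraries, against 2.13, 1.05, 2.24 and 6.64 CPM in ascending libraries. The descending libraries lay close together, and the highest ascending value was that of library 4. The log2 fold change was 3.58 ± 0.44 (SE, edgeR adjusted p = 0.00251). TENM3 (GeneID 102125883), a teneurin, stood at 20.5, 22.3, 11.7 and 20.6 CPM in descending libraries, against 4.20, 4.32, 4.60 and 7.36 CPM in ascending libraries. It rose by a log2 fold change of 1.87 ± 0.28 (SE, edgeR adjusted p = 0.0100), and its groups did not overlap.

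SLIT3 (GeneID 102126016), a secreted ligand of ROBO receptors, was at 283.6, 204.4, 215.8 and 223.9 CPM in descending libraries, against 105.5, 73.4, 94.7 and 101.9 CPM in ascending libraries. Its log2 fold change was 1.30 ± 0.23 (SE, edgeR adjusted p = 0.0308), the smallest of the 18. SLIT3 was the called member among 42 tested axon guidance genes, of which 27 had a log2 fold change above 0, with a median of 0.16 and 7 at an unadjusted p under 0.05. Without overlap 4 of the 42 were higher in descending libraries and 2 lower, beside 5.42% and 6.37% of all tested genes. The 2 lower ones, the ephrin receptors EPHB6 and EPHA3, did not pass the test without the block (log2 fold changes of -1.19 and -1.54, edgeR adjusted p = 0.0760 and 0.247). ITGBL1 (GeneID 102135380), a secreted protein with repeats like those of integrin beta chains, was at 209.9, 184.4, 158.3 and 119.4 CPM in descending libraries, against 57.4, 41.6, 56.3 and 40.5 CPM in ascending libraries. It rose by a log2 fold change of 1.78 ± 0.29 (SE, edgeR adjusted p = 0.0171).

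The gene with the lowest p-value, GeneID 102137838, has no symbol in the annotation table used. It stood at 28.1, 23.5, 25.4 and 12.4 CPM in descending libraries, against 1.38, 1.36, 0.787 and 1.15 CPM in ascending libraries. It rose by a log2 fold change of 4.25 ± 0.36 (SE, edgeR adjusted p = 7.09e-05), and with ADGRL3 it was called in each of the 27 alternative settings tried. SNX31, a sorting nexin, was at 17.1, 5.54, 12.6 and 2.83 CPM in descending libraries, against 0.0627, 0, 0.0605 and 0.181 CPM in ascending libraries. SERTM1, a small membrane protein rich in serine, was at 53.5, 24.2, 19.2 and 19.95 CPM in descending libraries, against 2.88, 1.79, 1.51 and 3.68 CPM in ascending libraries. Both rose, by log2 fold changes of 6.82 ± 1.01 and 3.56 ± 0.56 (SE, edgeR adjusted p = 0.0100 and 0.0136), and the SNX31 value rests on 5 counts over the ascending libraries. The unnamed locus LOC102131505 was at 2.11 to 5.50 CPM in descending and 0.0627 to 0.422 CPM in ascending libraries, a log2 fold change of 3.80.

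Besides HAND1, ART4, PIANP and MAB21L2 fell in the descending aorta. ART4, an ADP-ribosyltransferase that carries the Dombrock blood group, was at 1.71, 2.77, 0.849 and 1.39 CPM in descending libraries, against 10.6, 11.8, 5.21 and 10.8 CPM in ascending libraries. PIANP, a membrane protein that binds the immune receptor PILR alpha, was at 0.611, 0.723, 3.28 and 2.22 CPM in descending libraries, against 14.03, 19.8, 26.8 and 26.1 CPM in ascending libraries. MAB21L2, needed for eye development in the mouse, was at 0.611, 0.482, 0.485 and 0.333 CPM in descending libraries, against 4.32, 7.59, 6.72 and 2.05 CPM in ascending libraries. None of the 3 genes overlapped between the regions. Their log2 fold changes were -2.51 ± 0.38 for ART4, -3.66 ± 0.60 for PIANP and -3.42 ± 0.56 for MAB21L2 (SE, edgeR adjusted p = 0.0100, 0.0167 and 0.0167).

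With the replicate number as a block in the same model, 62 genes were called (0.389% of tested genes), 38 higher (0.239%) and 24 lower (0.151%), among them all 18 called without it. Whether the numbers mark the same animal is not given, and the deviations of same-numbered libraries were correlated at over 0.1 for numbers 1 to 3 but at 0.055 for number 4. NOTCH3, the receptor named in the title of the study, was among the genes that the block added. It stood at 235.5, 108.3, 94.2 and 128.4 CPM in descending libraries, against 71.2, 45.1, 47.8 and 61.3 CPM in ascending libraries. Every descending library was above every ascending library, and descending library 1 was the highest. The log2 fold change was 1.33 ± 0.26 without the block (SE, edgeR adjusted p = 0.0726) and 1.28 with it (edgeR adjusted p = 0.0115).

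Higher with the block, and not called without it, were also HOXC4, DISP1, which releases hedgehog ligands from the cells that make them, the protocadherin PCDH9 and the zinc-finger homeobox factor ZFHX4. Their log2 fold changes without the block were 1.90, 1.16, 3.45 and 1.74. Lower with the block were GATA5, C19H19orf33, NSMF, UNC80, a part of the sodium leak channel complex, and TRIM63, a ubiquitin ligase of striated muscle, with log2 fold changes without the block of -2.21, -2.73, -0.89, -1.96 and -1.42. TRIM63 was at 4.52 to 10.9 CPM in descending and 14.6 to 27.5 CPM in ascending libraries. The rule that named these genes required that the regions did not overlap. Their edgeR adjusted p-values without the block were between 0.0616 and 0.245.

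Genes that make the contractile and elastic parts of the wall differed little. Of 29 contractile smooth muscle genes none was called, none had an unadjusted p under 0.05 in edgeR, none was called by DESeq2 or limma voom, and the median log2 fold change was -0.09 with extremes of -0.86 and 0.79. Of 22 elastic fibre genes none was called, 1 had an unadjusted p under 0.05 in edgeR, none was called by DESeq2 or limma voom, and the median was 0.02. ELN, which encodes elastin, stood at 348.7, 635.4, 423.4 and 212.2 CPM in descending libraries, against 224.7, 520.7, 405.6 and 117.5 CPM in ascending libraries. The ranges overlapped, with library 2 the highest and library 4 the lowest in both regions, and the log2 fold change was 0.35 ± 0.54 (SE, edgeR adjusted p = 0.879). FBN1, which encodes fibrillin 1, was higher without overlap, at 815.9, 662.2, 616.6 and 596.1 CPM in descending and 520.3, 553.6, 451.9 and 315.4 CPM in ascending libraries. Its log2 fold change of 0.55 ± 0.22 did not pass the test (SE, edgeR adjusted p = 0.666).

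Among 19 fibrillar and associated collagens none was called in edgeR without the block, 7 had an unadjusted p under 0.05, 3 were called by DESeq2 and none by limma voom, and the median log2 fold change was 0.21. Of the 19, 12 had a log2 fold change above 0 and 7 below, with extremes of -1.21 and 1.60. Without overlap 4 were higher in descending libraries and 2 lower, beside 5.42% and 6.37% of all tested genes. The members with the lowest p, chosen after their values were seen, were higher in descending libraries. COL6A3, a chain of collagen VI, was at 201.6 to 388.7 CPM in descending and 80.8 to 107.3 CPM in ascending libraries, and it was called with the block (edgeR adjusted p = 0.0362) and not without it (edgeR adjusted p = 0.0616). COL1A1, a chain of collagen I, was at 1528 to 2465 CPM in descending and 582.5 to 923.8 CPM in ascending libraries, a log2 fold change of 1.46 (edgeR adjusted p = 0.0910). COL1A2, the other chain, was at 2541 to 3775 CPM in descending and 1347 to 1863 CPM in ascending libraries, a log2 fold change of 0.96 (edgeR adjusted p = 0.148). In these 3 collagens no library of either region reached the range of the other.

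Of 25 Notch pathway genes none was called without the block, and 3 had an unadjusted p under 0.05 in edgeR, beside 1074 of all 15926 tested genes. DESeq2 called 1 of the 25 and limma voom none, and the median was 0.16. JAG1, a Notch ligand, overlapped between the regions at 76.2 to 168.8 CPM in descending and 69.9 to 97.5 CPM in ascending libraries. Of 41 WNT pathway genes none was called without the block, 9 had an unadjusted p under 0.05 in edgeR, DESeq2 called 2 and limma voom none. SFRP1, a secreted WNT antagonist, was at 149.7 to 282.7 CPM in descending and 68.3 to 117.1 CPM in ascending libraries without overlap (log2 fold change 1.35, edgeR adjusted p = 0.0901). In all, 4 of 38 lists with tested genes held a call, and 29 of the other 34 had a median log2 fold change closer to 0 than 0.5.

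**Figure D3:**
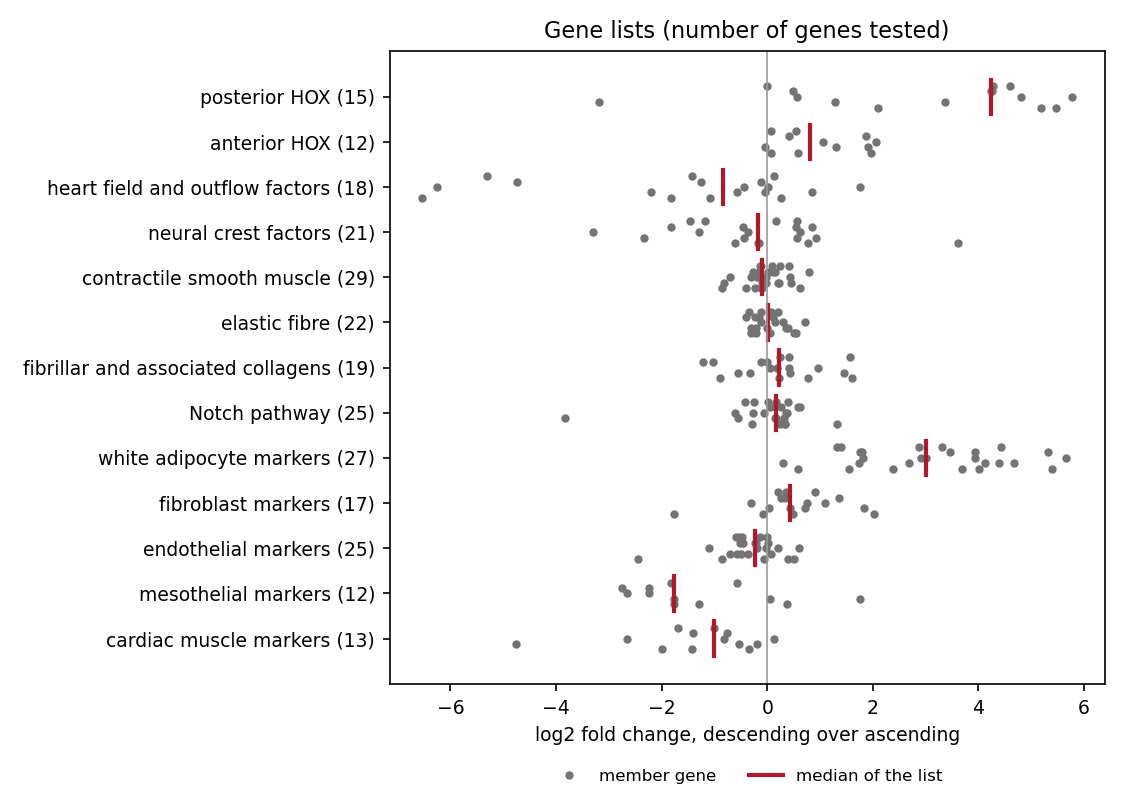
Log2 fold change of descending over ascending aorta for each tested member (grey points) of 13 of the gene lists, with the median of each list as a red bar and the number of tested members in brackets. The posterior HOX genes (median 4.23) and white adipocyte markers (median 3.01) lie to the right, the mesothelial (median -1.77) and cardiac muscle markers (median -1.01) to the left, and the contractile and elastic fibre genes around 0.

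White adipocyte markers were higher in the descending libraries, with a large spread. All 27 tested members had a log2 fold change above 0, and the median was 3.01. Of the 27, 5 were higher in descending libraries without overlap, beside 5.42% of all tested genes. None was called in edgeR, where 21 had an unadjusted p under 0.05, beside 1074 of all 15926 tested genes. DESeq2 called 10 of the 27 and limma voom none. Their summed level was 9036, 2730, 3250 and 899.2 CPM in descending libraries, against 621.7, 498.8, 549.5 and 1409 CPM in ascending libraries, so that descending library 1 was the highest of the 8 and descending library 4 was below ascending library 4. ADIPOQ, the adipocyte hormone adiponectin, was at 355.9, 116.9, 193.6 and 14.1 CPM in descending libraries, against 2.69, 1.23, 2.54 and 10.6 CPM in ascending libraries. UCP1, the uncoupling protein of brown fat, was at 43.3, 0.1204, 41.0 and 0.333 CPM in descending libraries and at 0 in every ascending library, at least 449-fold higher against the floor of 3 counts over the region, but it was not called (edgeR adjusted p = 0.271). Of 14 tested brown adipocyte markers 8 had a log2 fold change above 0, the median was 0.34, and none was called in edgeR without the block, where 6 had an unadjusted p under 0.05, DESeq2 called 2 and limma voom none. In whole tissue, fewer cells of a type and less RNA per cell cannot be told apart. Of the 18 called genes 8 were, like the adipocyte sum, highest in descending library 1 and lowest in descending library 4 among descending libraries. They were GeneID 102137838, HOXA7, HOXC6, HOXC5, SNX31, LOC102131505, ITGBL1 and MAB21L2, the last of which fell in the descending aorta, and the part of adipose tissue in their results was not tested. The same order was not counted over all tested genes, so the 8 of 18 has no share to be set beside it.

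Cardiac muscle markers were lower in the descending libraries, and MYL2 and TNNT2 were high in a single ascending library. Of 13 tested cardiac markers 12 had a log2 fold change below 0, and the median was -1.01, or -0.53 without ascending library 1. None was called in edgeR without the block and 1, TRIM63, with it. At an unadjusted p under 0.05 there were 6, DESeq2 called 1 and limma voom none. The mean centred log2 level of the list was -0.48, -0.09, 0.22 and 0.24 in descending libraries, against 1.87, 0.25, 0.41 and 0.72 in ascending libraries, so that every ascending library was above every descending library. MYL2, a ventricular myosin light chain, was at 0.428 to 1.58 CPM in descending libraries and at 99.4, 0.123, 0.605 and 0.483 CPM in ascending libraries. TNNT2, cardiac troponin T, was at 40.4 CPM in ascending library 1 and at most 5.37 CPM in the other 7 libraries. The cardiac marker list summed to 916.7 to 1808 CPM in descending and 1631 to 2390 CPM in ascending libraries, and NPPA, the atrial natriuretic peptide, was at 0 in all 8. HAND1 was at 7.14 CPM in ascending library 1, the lowest of its region, and at 7.41 and 21.0 CPM in libraries 2 and 3, where MYL2 was below 1 CPM. The part of cardiac muscle in the lower HAND1 level was not tested. Mesothelial markers were high in ascending library 4. MSLN, the mesothelial marker mesothelin, was at 0.222 to 4.43 CPM in descending libraries and at 0.501, 0.494, 0.787 and 40.7 CPM in ascending libraries. The mesothelial sum was 123.2 to 286.7 CPM in descending libraries, against 179.3 to 199.3 CPM in ascending libraries 1 to 3 and 1637 CPM in ascending library 4.

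Ascending library 4 also moved several marker lists. The endothelial median log2 fold change was -0.23 with all libraries and 0.63 without ascending library 4, and the mesothelial median was -1.77 and 0.74. The fibroblast median was 0.43 with all libraries and 1.24 without it. PECAM1, the endothelial adhesion molecule CD31, was at 212.3 to 273.9 CPM in descending libraries and at 112.3, 123, 167 and 574.5 CPM in ascending libraries. Descending library 1 and ascending libraries 1 and 4 were also left out together, which leaves 3 descending and 2 ascending libraries. All 18 called genes kept their direction, as the lack of overlap made all but certain. Their log2 fold changes then had sizes of 1.35 to 7.52, and GeneID 102137838, ADGRL3 and HOXC6 were called.

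**Figure D4:**
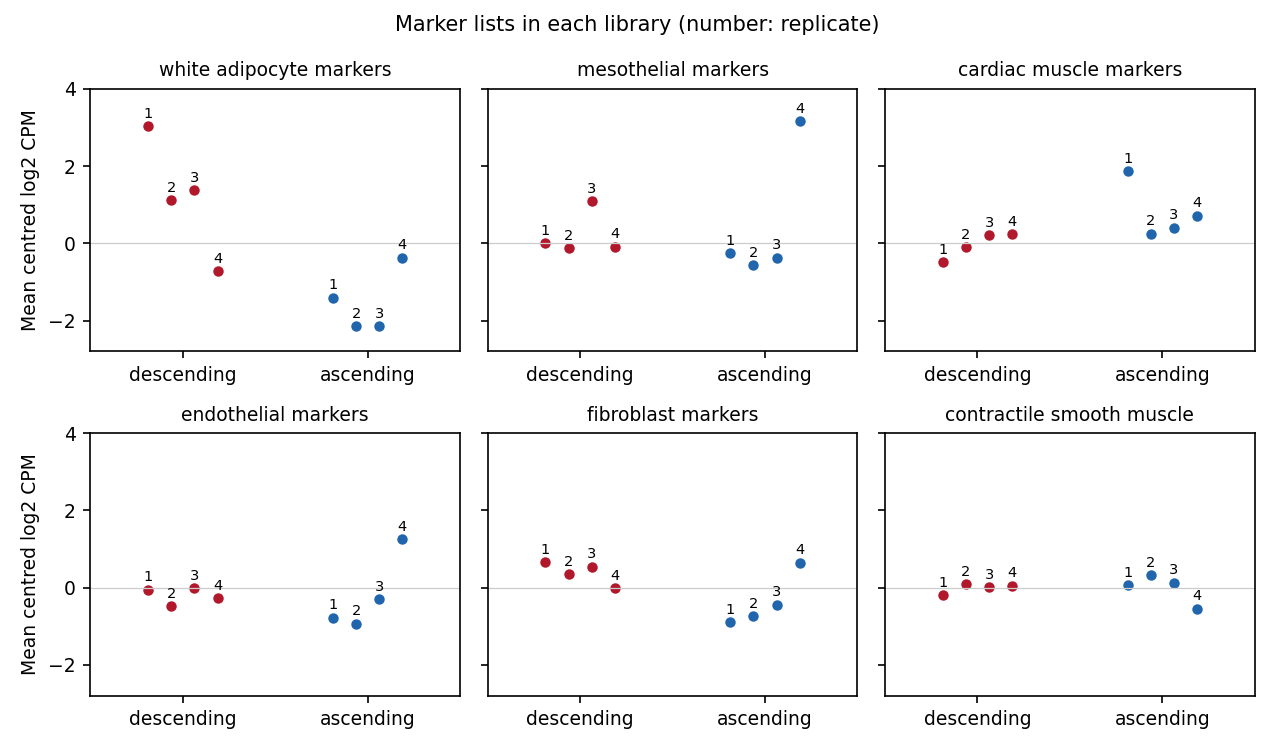
Mean centred log2 CPM of 6 marker lists (vertical axis) in each descending (left) and ascending (right) library, with the replicate number above each point. Descending library 1 is the highest for white adipocyte markers (3.03), ascending library 4 for mesothelial (3.18) and endothelial markers (1.25) and ascending library 1 for cardiac muscle markers (1.87), while the contractile genes lie between -0.55 and 0.32.

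The abdominal libraries show how the thoracic difference compares with the next pair of regions, since the infrarenal minus suprarenal difference shares no library with it. The 2 differences were set against each other in the same edgeR model, and 13 genes were called (0.0816%). In 12 of them the descending minus ascending difference, taken with its sign, was above the infrarenal minus suprarenal difference. At an unadjusted p under 0.05 this test gave 1150 genes. The 6 that were also called between descending and ascending aorta were HOXA7, HOXC6, HOXC5, ADGRL3, SNX31 and GeneID 102137838. For POU3F2, SHISA9, TMEM151B, NTN4 and HOXA4 the abdominal difference was called and the thoracic one was not. Their infrarenal minus suprarenal log2 differences were -5.51, -3.905, -3.40, -1.355 and -1.88. These were larger in size than their descending minus ascending differences of 2.20, 2.33, 0.49, 0.27 and 0.58. HOXA7 was at 0.475 ± 0.25 CPM in ascending, 21.4 ± 12.6 in descending, 40.1 ± 7.2 in suprarenal and 45.1 ± 31.3 in infrarenal libraries (SD, n = 4 each). Its infrarenal mean was raised by infrarenal library 1, at 92.0 CPM beside 30.4, 31.3 and 26.65 CPM in infrarenal libraries 2 to 4. Infrarenal library 1 also had the lowest scaling factor of all libraries, 0.736. ADGRL3 was at 3.01 ± 2.5 CPM in ascending, 36.1 ± 5.0 in descending, 32.5 ± 8.5 in suprarenal and 24.9 ± 8.3 in infrarenal libraries. Both were thus low in the ascending aorta and higher in the other 3 regions, and the thoracic log2 difference was larger than the abdominal one by 5.30 for HOXA7 (edgeR adjusted p = 0.0171) and 3.96 for ADGRL3 (edgeR adjusted p = 0.0171).

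SNX31 was high in the 2 middle regions, at 0.0761 CPM in ascending, 9.49 in descending, 12.3 in suprarenal and 0.204 in infrarenal libraries on average. Its 2 differences had opposite signs, 6.82 for descending minus ascending and -5.91 for infrarenal minus suprarenal aorta, and differed by 12.73 (edgeR adjusted p = 0.00168). HOXC5 was highest in descending libraries, at 3.09, 12.1, 9.99 and 6.41 CPM on average from the ascending to the infrarenal aorta. HOXA9 and HOXA10 had higher means in the infrarenal aorta, at 44.5 ± 7.2 and 37.4 ± 8.5 CPM, against 11.03 ± 10.1 and 6.22 ± 4.9 CPM in the suprarenal aorta (SD, n = 4 each). The infrarenal minus suprarenal difference was called for HOXA10 (edgeR adjusted p = 0.0293) and not for HOXA9 (edgeR adjusted p = 0.186). For HOXA9 and HOXA10 the thoracic and abdominal differences did not pass the test of their own difference (edgeR adjusted p = 0.545 and 0.655). NOTCH3 averaged 56.3 ± 12.2, 142 ± 64.2, 215.6 ± 41.7 and 457.6 ± 49.6 CPM from the ascending to the infrarenal aorta (SD, n = 4 each), and its thoracic and abdominal differences of 1.33 and 1.09 were not called apart (edgeR adjusted p = 0.824). Neither difference was itself called without the block (edgeR adjusted p = 0.0726 and 0.131). HAND1 was at 11.8 ± 6.5 CPM in ascending libraries and averaged under 0.5 CPM in each of the other regions.

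**Figure D5:**
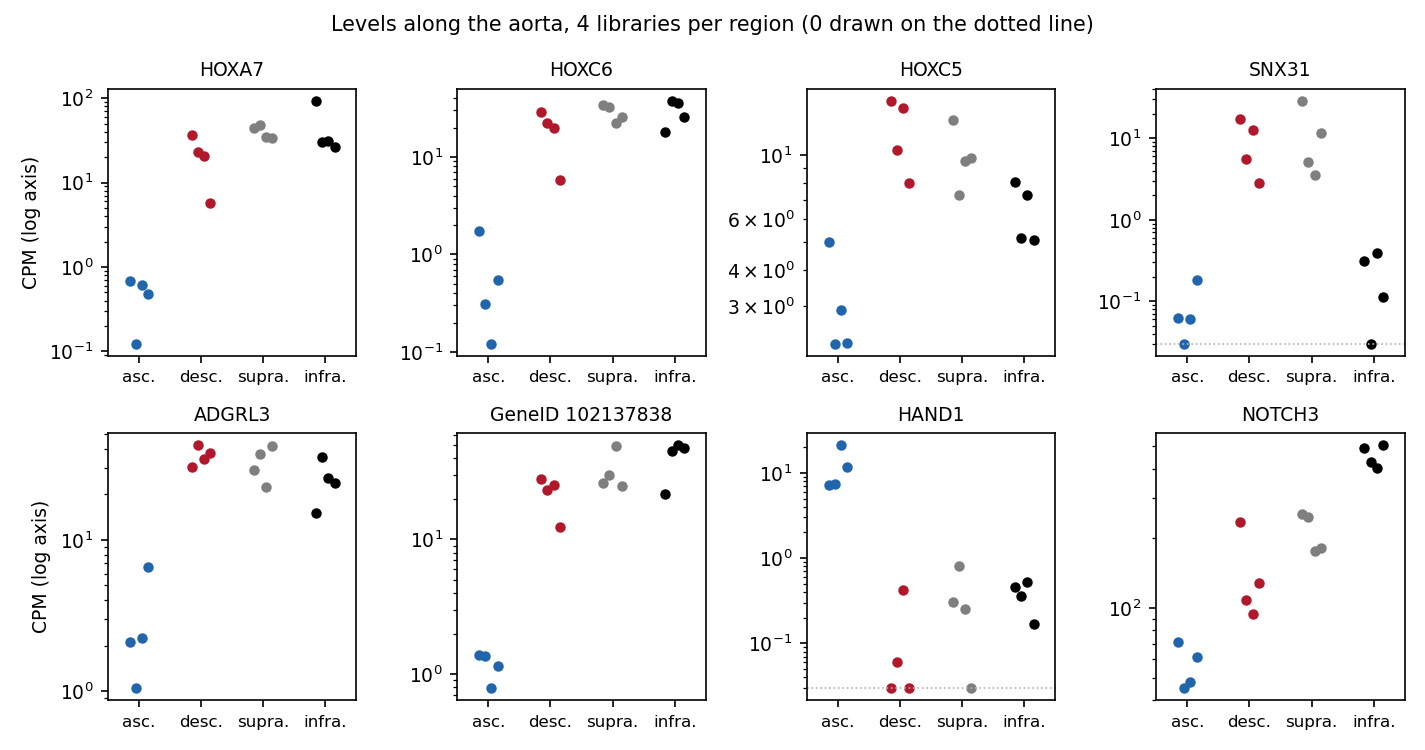
Level in CPM (log axes that differ between panels, 0 on the dotted line) of 8 genes in the 4 libraries of each region, ordered along the aorta from ascending to infrarenal. HOXA7, HOXC6, ADGRL3 and GeneID 102137838 are low in the ascending aorta and higher in the other 3 regions, SNX31 is high in the descending and suprarenal aorta, HAND1 is high in the ascending aorta, and NOTCH3 has its highest levels in the infrarenal aorta.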

How the data were processed

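RNA was extracted from aorta of untreated cynomolgus monkeys, and NEBNext Ultra libraries were sequenced. Per the submitters' processing notes reads were processed by the authors with featureCounts (1.5.0-p3), fastp and HISAT2 (2.0.5). Raw read counts per NCBI GeneID were deposited, in 32846 rows of which 24 are mitochondrial RNAs. The genome build was not given in the sources used here, nor the annotation. Symbols came from a RefSeq table (assembly MFA8v1.1) that was used for symbols alone and matched 24609 rows. Every per-sample column was mapped by its name to 1 library. The 8 libraries were distinct samples by their counts (lowest chi-square per degree of freedom within a region 22.0).

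From the counts, genes were kept with filterByExpr (minimum count 10, minimum total 15) and normalized by trimmed mean of M values. They were tested with edgeR 4.0.16 (R 4.3.3), by its quasi-likelihood F test, with 1 mean per region over all 16 libraries, which share 1 estimate of the spread (biological coefficient of variation 0.382, 12 residual degrees of freedom). A gene was called at a Benjamini-Hochberg adjusted p under 0.05. The procedure was first tested on simulated data. Alternatives were a replicate block, the 8 libraries alone, RLE size factors, library totals, other filters, DESeq2 1.42.0, limma voom (limma 3.58.1) and leaving libraries out. List scores are means of members' log2 CPM (prior count 2), centred over the 16 libraries.

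Members of the comparison, the 39 gene lists and the tests were chosen with earlier results of these data known. Named genes were NOTCH3, ELN and FBN1, the tested HOX genes, and the 12 largest called changes in each direction that had no overlap, a symbol and at least 1 as mean log2 CPM. Up to 3 called members of each list, 5 genes in each direction called with the block alone, and 4 in each direction called in both the thoracic and the step test were added. The called genes outside the rule (LOC102131505 and MAB21L2) and the other genes given values were named after their values were seen. The list of X-inactivation and Y-linked genes had 0 members in the table and was not analysed here. Some items are not reported here.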

Additional observations from a re-analysis of the deposited data

Results flagged for a closer look

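Of 150 groups of 4 libraries, for 75 genes in descending and ascending aorta, 18 had a library whose gap to the nearest other library exceeded Dixon's 95% value. Chance gives about 1 in 20 such groups, but some genes, among them MYL2, TNNT2, MSLN, UPK3B and PECAM1, were chosen after a single high library was seen, so the count is not to be read against that rate. Of the 18, 12 were ascending library 4, at its highest value for TENM3 (7.36 CPM), HOXA9 (0.362 CPM), GATA4 (15.4 CPM), CCDC80, a secreted matrix protein (373.5 CPM), HOXC9 (0.0604 CPM), HOXD8 (6.16 CPM), ADIPOQ (10.6 CPM), HOXD4 (10.98 CPM), MSLN (40.7 CPM), UPK3B, a mesothelial marker (28.0 CPM), HOXD1 (2.72 CPM) and PECAM1 (574.5 CPM). Ascending library 1 stood apart for MYL2 (99.4 CPM) and TNNT2 (40.4 CPM), and ascending library 2 for HOXA10 (0.185 CPM). Descending library 1 stood apart for SERTM1 (53.5 CPM), and descending library 3 for HAND1 (0.425 CPM) and UPK3B (4.25 CPM). The HOXA9, HOXA10 and HOXC9 values are a few counts each.

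For 8 of the named genes the descending minus ascending difference differed from the infrarenal minus suprarenal difference in edgeR. The log2 difference between the 2 was 12.73 for SNX31, 5.30 for HOXA7, 4.79 for HOXC6, 3.96 for ADGRL3, 3.92 for GeneID 102137838, 2.61 for HOXC5, 2.48 for SFRP1 and 2.46 for HOXA4. SFRP1 averaged 221.9 CPM in descending, 87.3 in ascending, 201.6 in suprarenal and 91.9 in infrarenal libraries, so that it was higher in the 2 middle regions. HOXA4 averaged 19.5 CPM in descending, 13.1 in ascending, 11.5 in suprarenal and 3.11 in infrarenal libraries. SFRP1 and HOXA4 were not called between descending and ascending aorta (edgeR adjusted p = 0.0901 and 0.778).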

How the results depend on the processing

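The count of genes called between descending and ascending aorta, 18, was 30 (22 higher, 8 lower) with the 8 libraries alone, 62 with the replicate block, 142 with the block in the 8 libraries alone, 177 with DESeq2 and 9 with limma voom. It was between 7 and 34 with a single library left out, highest without infrarenal library 1. It was 141 without infrarenal 1, ascending 4 and suprarenal 3, and, in a setting added after seeing the data, 3 without descending 1, ascending 1 and ascending 4. Scaling by RLE size factors, library totals or other filters gave 18 to 25. The 13 genes of the thoracic against abdominal test were 15 with the replicate block, 110 with DESeq2, 1 with limma voom, 3 to 31 with a library left out, and 55 and 2 in those same 2 joint settings, both added for this test after seeing the data. The causes were not tested, apart from the fewer libraries used. All 18 genes kept their direction in each setting, which for libraries left out was all but certain, since the regions did not overlap in these genes. The share of higher calls was 14 of 18, against 5 of 9 in limma voom, 72 of 142 with the block in 8 libraries and 13 of 19 with library totals.

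Same-numbered libraries had correlated deviations for numbers 1 to 3 (0.40 to 0.49) and under 0.1 for number 4 (0.055), so pairing was not shown. As a hint from the data, 7 of 8 libraries were closest to their own number in the other region, and 15 of 16 on average over all regions.

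Values near 0 changed sign. HOXD9 was -0.061 with the replicate block, -0.023 with library totals, -0.00235 with the 8 libraries alone, -0.000582 with no filter, -0.000415 with a CPM filter, and -0.51 to 0.74 with a library left out. With a library left out HOXB2 was between -0.14 and 0.027, HOXB4 between -0.0044 and 0.18, HOXA2 between -0.10 and 0.19 and HOXA11 between -0.069 and 1.79. Without infrarenal 1, ascending 4 and suprarenal 3, HOXA2 was -0.11 and HOXB2 0.018. Without descending 1, ascending 1 and ascending 4, ELN was -0.13, HOXA2 -0.054 and HOXB2 0.17. Calls of scarce genes such as HOXA9 and HOXA10 rest on few counts in the ascending libraries.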

Other observations

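Genes of muscle excitability and of mural cells were not described as lists above, and the members given here were chosen after their values were seen. Of 43 tested ion channel genes of muscle none was called in edgeR without the replicate block, 7 had an unadjusted p under 0.05, DESeq2 called 3 and limma voom none, and the median log2 fold change was 0.07. KCNK2, a potassium channel gated by stretch and lipids, averaged 5.42 ± 2.31 CPM in descending and 0.382 ± 0.228 CPM in ascending libraries (SD, n = 4 each), and TRPC6, a cation channel of smooth muscle, 29.7 ± 5.12 and 12.9 ± 1.86 CPM. Both were higher in the descending aorta without overlap, with edgeR adjusted p-values of 0.120 and 0.118 without the block and 0.0210 and 0.0296 with it.

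Of 12 pericyte and mural markers none was called without the block, 3 had an unadjusted p under 0.05 in edgeR, DESeq2 called 2 and limma voom none, and the median log2 fold change was 0.31. Without overlap 4 were higher in descending libraries and 0 lower, beside 5.42% and 6.37% of all tested genes. The summed level of the list was 5740 to 7039 CPM in descending and 2173 to 3598 CPM in ascending libraries. RGS5, a regulator of G protein signalling that marks mural cells, averaged 4565 ± 433 CPM in descending and 1758 ± 667.3 CPM in ascending libraries (SD, n = 4 each). Its libraries did not overlap, and its log2 fold change of 1.38 ± 0.49 did not pass the test (SE, edgeR adjusted p = 0.538). PRELP, a proteoglycan of connective tissue that is not among these 12 markers, was lower without overlap, at 554.1 ± 81.9 CPM in descending and 999 ± 267.7 CPM in ascending libraries (SD, n = 4 each, edgeR adjusted p = 0.336).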
